A study of Mus musculus with 2 samples.

Results

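The 43 genes described here encode the machinery of G2 and mitosis: CDK1 with its cyclins, the mitotic kinases, the kinetochore, the spindle, the anaphase switch and the proteins that part the daughter cells. They were chosen by name rather than by a threshold on measured values, and are 43 of the 44291 genes in the files. Expression was measured by RNA-seq in primary mouse fibro-adipogenic progenitors (FAPs), mesenchymal cells of skeletal muscle that can become adipocytes. Per the study's methods, FAPs were sorted by flow cytometry from the hind limb muscles of C57BL/6 mice. The wild-type (WT) cells received platelet-rich plasma (PRP) or vehicle, and both cultures were afterwards held in adipogenic induction medium, that is DMEM with FBS, IBMX, dexamethasone and insulin. The sample labels call the treatment PRP, while the study's text speaks of exosomes isolated from PRP, and neither the labels nor this comparison separates them. Which library received PRP rests on the labels alone. Each group is 1 library, so no difference below has a replicate check and no test across samples was possible. How many mice or cultures went into a library and how long the cells were treated are not given in the labels.

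Mitosis begins when CDK1, bound to a B-type cyclin, is switched on, and it ends when the anaphase-promoting complex marks securin and the cyclins for destruction. Most genes of this machinery are transcribed late in the cell cycle and kept low in resting cells, so their mRNA level in a bulk culture is widely used as a sign of how much of it is dividing. Their promoters are known for a cell cycle genes homology region (CHR), the element contacted by the DREAM and B-MYB-MuvB complexes, and for CCAAT boxes, which NF-Y binds. In a bulk library, fewer dividing cells and less of these mRNAs in each dividing cell cannot be told apart.

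The promoters of 9 members are shown because they carry these elements, or lack them, at both ends of the range of differences: Cdk1, the 5 members with the lowest log2 fold change, and the 3 with the highest that have a RefSeq promoter entry. Each stretch of 150 bases runs 5′ to 3′ from 120 bases before the RefSeq start site to 30 after it, on GRCm38.p6. Capitals mark CHR letters (TTTGAA or TTCGAA) and CCAAT letters on either strand. A match describes letters and is not evidence of a bound factor.
Cdk1, chr10:69352883-69353032, minus strand: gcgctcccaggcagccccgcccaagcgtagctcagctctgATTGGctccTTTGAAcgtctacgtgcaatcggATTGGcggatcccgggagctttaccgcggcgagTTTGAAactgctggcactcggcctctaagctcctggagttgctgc
Mki67, chr7:135716350-135716499, minus strand: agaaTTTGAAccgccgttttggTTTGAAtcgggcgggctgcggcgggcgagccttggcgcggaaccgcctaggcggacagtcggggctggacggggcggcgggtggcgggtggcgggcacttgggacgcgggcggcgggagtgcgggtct
Ccnb2, chr9:70421525-70421674, minus strand: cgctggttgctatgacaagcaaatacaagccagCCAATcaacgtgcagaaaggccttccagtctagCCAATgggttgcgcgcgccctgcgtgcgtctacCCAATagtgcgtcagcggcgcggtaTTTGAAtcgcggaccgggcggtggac
Hmmr, chr11:40733408-40733557, minus strand: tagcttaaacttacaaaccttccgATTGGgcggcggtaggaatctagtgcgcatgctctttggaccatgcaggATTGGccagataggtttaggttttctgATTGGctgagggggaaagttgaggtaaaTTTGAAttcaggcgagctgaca
Nuf2, chr1:169531435-169531584, minus strand: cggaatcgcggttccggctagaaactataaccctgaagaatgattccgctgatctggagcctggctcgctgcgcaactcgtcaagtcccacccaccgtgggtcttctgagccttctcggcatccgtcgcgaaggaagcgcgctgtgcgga
Top2a, chr11:99024160-99024309, minus strand: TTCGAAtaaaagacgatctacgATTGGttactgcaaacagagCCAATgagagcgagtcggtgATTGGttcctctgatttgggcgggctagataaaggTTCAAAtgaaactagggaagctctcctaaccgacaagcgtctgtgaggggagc
Cks2, chr13:51645112-51645261, plus strand: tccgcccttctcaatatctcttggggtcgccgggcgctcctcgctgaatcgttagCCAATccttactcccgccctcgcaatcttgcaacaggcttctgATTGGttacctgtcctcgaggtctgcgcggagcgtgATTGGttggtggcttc
Ube2c, chr2:164769809-164769958, plus strand: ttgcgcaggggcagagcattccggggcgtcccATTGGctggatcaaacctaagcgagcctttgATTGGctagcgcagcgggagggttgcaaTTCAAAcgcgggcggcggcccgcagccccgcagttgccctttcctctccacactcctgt
Pttg1, chr11:43425952-43426101, minus strand: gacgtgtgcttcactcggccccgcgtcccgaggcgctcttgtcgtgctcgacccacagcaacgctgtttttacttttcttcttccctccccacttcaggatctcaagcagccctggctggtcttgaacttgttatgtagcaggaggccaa
Of the 5 members with the lowest values, Mki67, Ccnb2, Hmmr and Top2a held CHR letters in this stretch and Nuf2 held neither element. Among the 3 with the highest, Ube2c held both, Cks2 held CCAAT letters only, and Pttg1 held neither. The RefSeq start site of Pttg1 lies 270 bases inside the M21 gene, so its stretch shows no flank upstream of that gene.

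Recovered from the FPKM values, the depth of the PRP library was 40120843 assigned reads and that of the control library 34139741, and the members had between 199 and 13468 reads in a library. FPKM is reads per exon kilobase and scaled to the reads of the library. The exon lengths that gave whole reads join all annotated exons of a gene, so levels compare only roughly between genes. Mitochondrial genes took 2.06% of all FPKM with PRP and 3.70% with vehicle. The FAP label was checked against marker genes. Values are given first for PRP and then for vehicle wherever a pair is printed. Pdgfra, the defining FAP receptor, had an FPKM of 19.8 with PRP and 28.0 with vehicle, and Ly6a, the gene of the Sca-1 surface protein, 59.9 and 66.4. The summed FPKM of the 10 FAP markers was 325 against 520. All 8 tested markers were lower beyond counting error, against 26.1% of all genes with an interval. Col1a1, the most abundant, was at 119 against 219, and Dpt at 18.8 against 50.2. Lum (0.081 against 0.072) and Pi16 (0.031 against 0.060) had a mean FPKM below 1 and were close to absent. The 6 adipocyte markers summed to 51.0 against 43.4, most of it from Fabp4 (40.7 against 33.6). Of the 4 tested, Fabp4 alone was higher beyond counting error. Plin1 was lower in value at 1.73 against 2.10, with an interval that included 1. The 8 macrophage markers summed to 11.2 against 11.1. Lyz2 was lower at 4.91 against 7.57, and Cd68 higher at 4.56 against 2.31, both beyond counting error. The 7 endothelial markers summed to 9.59 against 5.46 (Tek, 4.73 against 3.56) with Cldn5 at 0. The myogenic markers in the files summed to 18.4 against 14.7. Acta1 was at 15.1 against 11.1, and Des at 2.91 against 3.39 with an interval that included 1. Pax7 and Myog were at 0 in both libraries. The 8 platelet and erythroid markers summed to 1.70 against 3.03 (Gp1bb, 0.872 against 2.26, with 92.9% of its exon length in common with other genes), with Ppbp and Gp9 at 0. The part of the lower FAP marker level in the differences below was not tested.

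Mitosis and G2/M genes had lower levels in the PRP library than in the control library. All 43 had a mean FPKM of at least 1, and 39 of them (90.7%, or 40 after rescaling to a common sum) lay below 0 on the scale of log2(PRP FPKM + 1) minus log2(control FPKM + 1), against 49.1% of the 13401 genes that passed the same limit. The median log2 fold change was -0.34, with quartiles of -0.49 and -0.24, while the median of all tested genes was 0.01. The pseudocount of 1 understates the change of low genes. The summed FPKM of the members was 411 with PRP and 541 with vehicle, a ratio of 0.759.

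The differences were modest in size. On the same scale, a log2 fold change of -0.32 or below was found in 22 members (51.2%, against 14.1% of all tested genes), and at least 1.5-fold lower were 5 (11.6%, against 4.57%), namely Mki67, Ccnb2, Hmmr, Nuf2 and Top2a. None was at least 2-fold lower. With a pseudocount of 0.1 in place of 1, 10 members were at least 1.5-fold lower. An exact Clopper-Pearson 95% interval of each PRP to control FPKM ratio was computed from the recovered reads. It lay below 1 in 33 members (76.7%, against 26.1% of 12369 genes with an interval) and above 1 in 2, Ccna2 and Pttg1 (against 26.1% of those genes), and it included 1 in 8. These intervals cover counting error only and compare the 2 libraries, not the treatments.

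**Figure D1:**
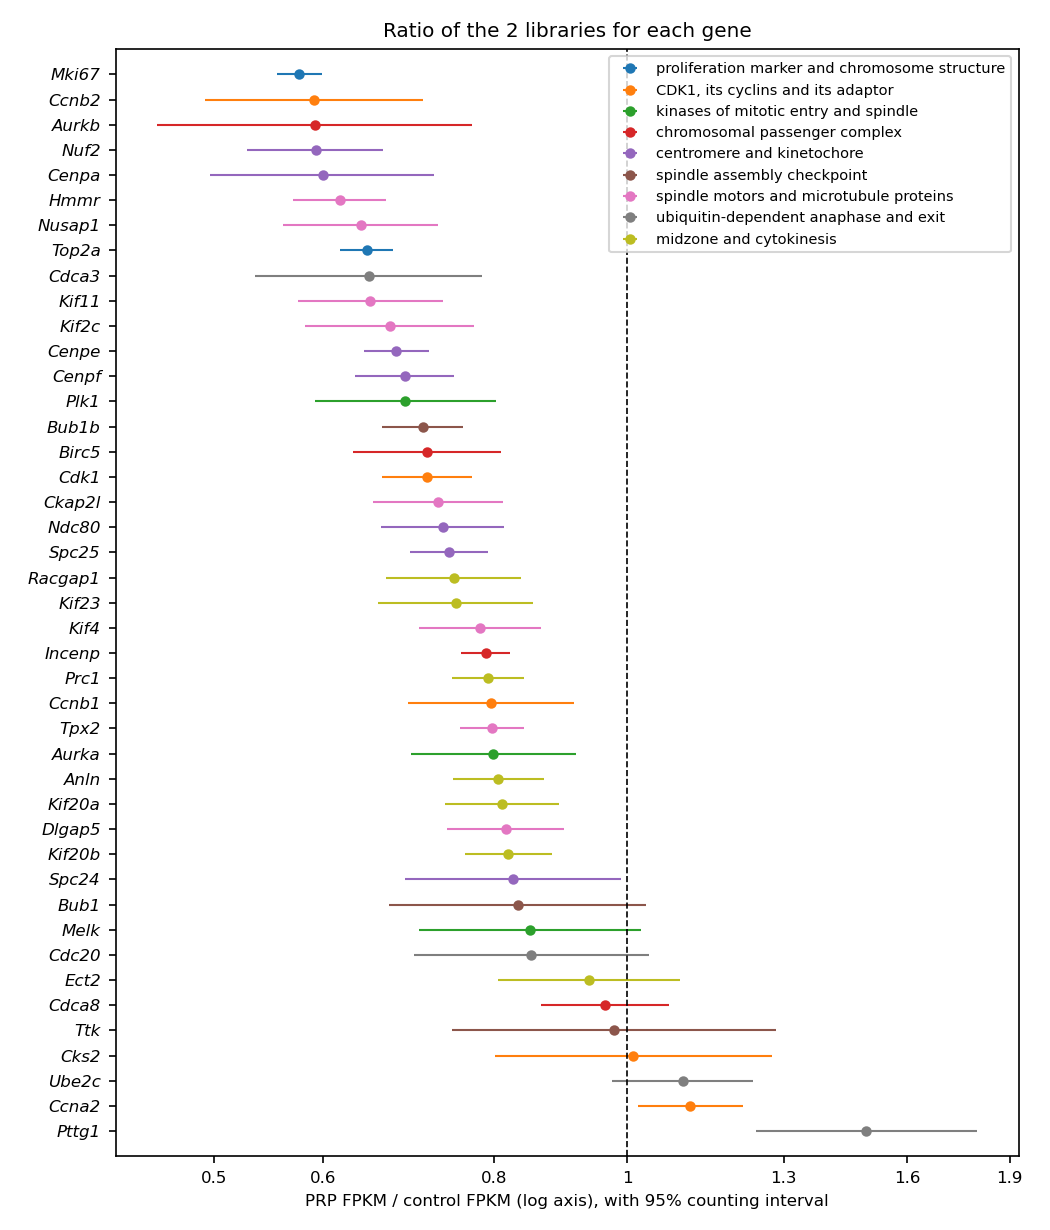
PRP to control FPKM ratio of each of the 43 members (x axis, log scale), ordered by ratio and coloured by role, with bars for the exact 95% counting interval and a line at 1. The ratios run from 0.577 for Mki67 to 1.49 for Pttg1, and 33 of the intervals lie wholly below 1.

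Among the markers of proliferation and chromosome structure, Mki67, which encodes the Ki-67 antigen that coats mitotic chromosomes, had the lowest ratio of all members. Its FPKM was 22.6 with PRP and 39.2 with vehicle, a ratio of 0.577 (0.555 to 0.599). Top2a, the topoisomerase that untangles sister chromatids, had an FPKM of 18.6 and 28.7, a ratio of 0.645 (0.617 to 0.675). Both were lower in the PRP library, and the interval of Mki67 lay wholly below that of Top2a. In M21 coordinates (GRCm38), Mki67 spans chr7:135689784-135716361 and Top2a chr11:98992943-99024189, both on the minus strand.

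CDK1, its cyclins and its adaptor did not shift as a block. Cdk1, the kinase that drives mitotic entry, had an FPKM of 12.8 with PRP and 17.8 with vehicle, a ratio of 0.715 (0.663 to 0.771). Ccnb2 and Ccnb1 encode the B-type cyclins that activate it. Ccnb2 was at 6.63 and 11.2, a ratio of 0.591 (0.492 to 0.709), and Ccnb1 at 4.69 and 5.89, a ratio of 0.796 (0.692 to 0.915). Both B-type cyclins were thus lower, with intervals that overlap narrowly. Both have pseudogene copies in the files, so the split of their reads is uncertain. Ccna2, the cyclin that partners CDK2 in S phase and CDK1 before mitosis, went the other way, at 14.3 and 12.9, a ratio of 1.11 (1.02 to 1.21), and its interval lay above those of both B-type cyclins. When both libraries were scaled without mitochondrial genes and the 50 most abundant genes, the interval of Ccna2 reached down to 0.995. Its FPKM was 3.06 times that of Ccnb1 with PRP and 2.19 times with vehicle. Other genes overlap 12.5% of the exon length of Ccna2. Cks2, a small protein that docks CDK1 onto phosphorylated substrates, was at 11.9 and 11.8, and the sign of its log2 fold change depended on the scaling.

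The kinases of mitotic entry and spindle assembly were all lower in value. Plk1, which promotes mitotic entry and centrosome maturation, had an FPKM of 7.14 with PRP and 10.4 with vehicle, a ratio of 0.689 (0.592 to 0.801). Aurka, the Aurora kinase of centrosomes and spindle poles, was at 7.96 and 9.96, a ratio of 0.799 (0.695 to 0.917). Melk, a kinase whose mRNA is abundant in dividing cells, was at 3.87 and 4.56, a ratio whose interval reached 1.02.

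The chromosomal passenger complex corrects faulty attachments between chromosomes and spindle. Its kinase gene Aurkb had an FPKM of 1.68 with PRP and 2.84 with vehicle, a ratio of 0.592 (0.454 to 0.770). Birc5, which encodes the subunit survivin, was at 6.98 and 9.77, a ratio of 0.714 (0.631 to 0.808). Incenp, the scaffold, had the highest FPKM of all 43 members, at 51.9 and 65.8, a ratio of 0.789 (0.757 to 0.821). These subunits were lower in the PRP library, whereas Cdca8, which encodes borealin, was at 7.01 and 7.29 with an interval of 0.865 to 1.07 that lay above those of the other three. Scaffold and kinase differed widely in FPKM, that of Incenp being 30.8 times that of Aurkb with PRP and 23.1 times with vehicle.

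All 7 centromere and kinetochore genes were lower beyond counting error, against 26.1% of all genes with an interval. Their median log2 fold change was -0.43. Cenpa, the histone H3 variant that marks the centromere, had an FPKM of 1.65 with PRP and 2.76 with vehicle, a ratio of 0.600 (0.497 to 0.723). Cenpe, the kinesin that carries chromosomes towards the spindle equator, was at 13.8 and 20.3, a ratio of 0.679 (0.643 to 0.716). Cenpf, a large protein of the outer kinetochore, was at 3.33 and 4.84, a ratio of 0.688 (0.633 to 0.747). The remaining genes encode the NDC80 complex, the main microtubule anchor of the kinetochore. Nuf2 had the lowest ratio of its subunits, at 4.06 and 6.86, or 0.592 (0.529 to 0.664). Ndc80, which pairs with it, was at 5.29 and 7.20, a ratio of 0.734 (0.662 to 0.813). Spc25 was at 26.9 and 36.2, a ratio of 0.741 (0.694 to 0.791), and its partner Spc24 at 4.71 and 5.70, a ratio of 0.825 (0.689 to 0.989). The ratios of Spc25 and Ndc80 were close to each other, and the interval of Nuf2 lay below that of Spc25.

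Of the spindle assembly checkpoint genes, which hold back anaphase until every chromosome is attached, only Bub1b was lower beyond counting error. Bub1b, which encodes the checkpoint protein BubR1, had an FPKM of 17.9 with PRP and 25.2 with vehicle, a ratio of 0.709 (0.662 to 0.759). Bub1, a kinase that recruits other checkpoint proteins, was at 1.98 and 2.38 with an interval of 0.671 to 1.03. Ttk, the Mps1 kinase at the head of the checkpoint, was at 1.22 and 1.24 with an interval of 0.745 to 1.28. A ratio as low as that of Bub1b lay within the interval of Bub1 and just outside that of Ttk.

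All 8 genes of spindle motors and microtubule proteins were lower beyond counting error, against 26.1% of all genes with an interval. Their median log2 fold change was -0.45. Hmmr, a spindle pole adaptor that also binds hyaluronan, had an FPKM of 10.3 with PRP and 16.8 with vehicle, a ratio of 0.617 (0.571 to 0.667). Nusap1, which bundles microtubules near chromatin, was at 5.03 and 7.87, a ratio of 0.639 (0.561 to 0.728). Kif11, the kinesin that pushes the spindle poles apart, was at 3.14 and 4.83, a ratio of 0.650 (0.575 to 0.734). The other genes of this group differed less. Kif2c, a kinesin that shortens microtubules, was at 4.03 and 6.0, a ratio of 0.671 (0.582 to 0.773). Ckap2l, a spindle-associated protein, was at 9.81 and 13.5, a ratio of 0.728 (0.653 to 0.811). Kif4, a chromosome-bound kinesin, was at 6.51 and 8.33, a ratio of 0.781 (0.705 to 0.866). Other genes overlap 15.1% of its exon length. Tpx2, the activator of Aurora A, was at 28.4 and 35.6, a ratio of 0.797 (0.756 to 0.840), and Dlgap5, which stabilises kinetochore fibres, at 5.84 and 7.17, a ratio of 0.815 (0.739 to 0.899). Hmmr and Tpx2 differed from each other beyond counting error. The FPKM of Tpx2 was 3.57 times that of its partner Aurka in each library.

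The 4 genes grouped under ubiquitin-dependent anaphase and exit were mixed, with a median log2 fold change of -0.04. Cdca3 is placed in this group although it is linked to mitotic entry. Pttg1 encodes securin, the inhibitor of separase that is destroyed at anaphase. It had an FPKM of 8.03 with PRP and 5.37 with vehicle, a ratio of 1.49 (1.24 to 1.80), the highest of the 43. Ube2c, the ubiquitin-conjugating enzyme of the anaphase-promoting complex, was at 12.5 and 11.4 with an interval of 0.975 to 1.23. Other genes overlap 22.8% of its exon length. Cdc20, the activator of that complex, was at 5.54 and 6.51 with an interval of 0.699 to 1.04. Cdca3, whose link to mitotic entry is through protein degradation, was at 3.39 and 5.23, a ratio of 0.648 (0.535 to 0.784). It alone of the 4 was lower beyond counting error. Ccna2, Ube2c and Pttg1 stayed above 0 under each of the 5 alternative pseudocounts and scalings.

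The 7 genes of the midzone and cytokinesis were lower by a similar amount, except Ect2. Racgap1 and Kif23, which together form centralspindlin, had ratios of 0.747 (0.667 to 0.837) and 0.750 (0.658 to 0.854). Racgap1 was at 4.03 with PRP and 5.40 with vehicle, and Kif23 at 2.78 and 3.71. The FPKM of Kif23 was 0.690 of that of Racgap1 with PRP and 0.688 with vehicle. Prc1, the microtubule bundler of the midzone, was at 12.3 and 15.5, a ratio of 0.791 (0.745 to 0.841), and other genes overlap 11.1% of its exon length. Anln, the actin-binding anillin of the contractile ring, was at 7.19 and 8.94, a ratio of 0.805 (0.746 to 0.869). Kif20a, a midzone kinesin, was at 9.61 and 11.9, a ratio of 0.810 (0.736 to 0.892), and other genes overlap 29.3% of its exon length, the most of any member. Kif20b, a related kinesin, was at 10.1 and 12.4, a ratio of 0.819 (0.761 to 0.882). Ect2, the exchange factor that activates RhoA at the cleavage furrow, was at 3.30 and 3.52 with an interval of 0.804 to 1.09. Without the 5 members that share over 10% of their exon length, 30 members remained lower beyond counting error and the median was -0.40. Over all genes with an interval, with none left out for overlap, the share lower beyond counting error was 26.1%.

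**Figure D2:**
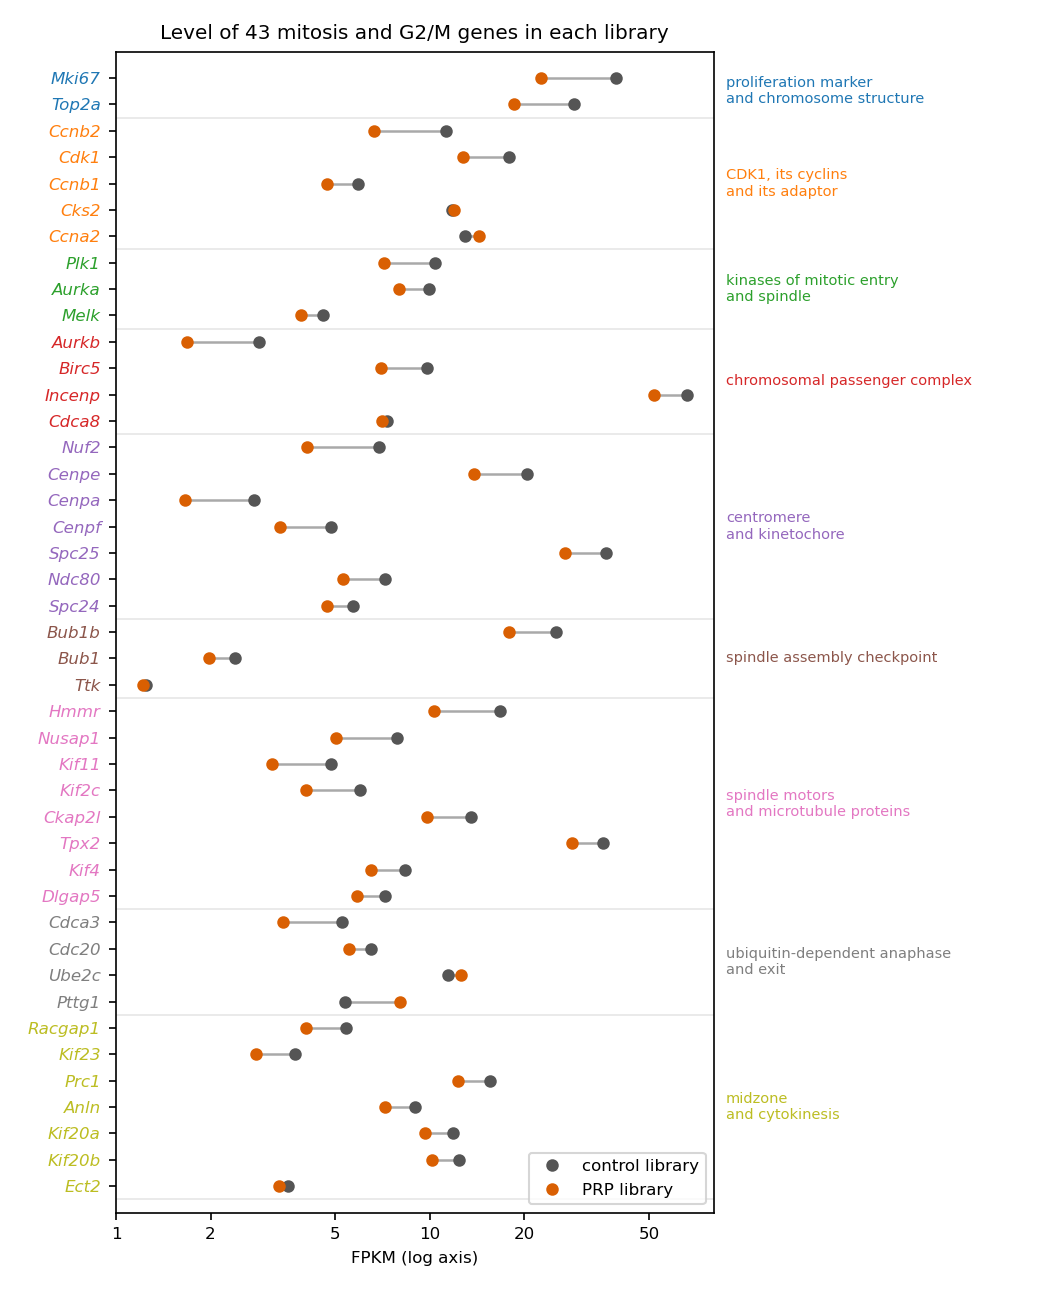
FPKM of each of the 43 members in the PRP library (orange) and the control library (grey) on a log axis, grouped by role, with a line joining the values of a gene. Levels span from 1.22 for Ttk to 65.8 for Incenp, and the orange point lies to the left of the grey one for 39 members.

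Within counting error the members did not share a common ratio, since intervals such as those of Mki67, Incenp and Cdca8 do not overlap. These genes were picked with their values seen, and the intervals hold no variation between replicate libraries. Across the 43 members, which share both libraries, Spearman's rho of the log2 fold change was -0.26 with exon length and -0.15 with mean FPKM. The same values over all tested genes were -0.08 and -0.02. The 22 members with the shortest exons, up to 4363 bases, had a median of -0.31, and the 21 longer ones -0.35. Split by mean FPKM, the 22 members up to 7.42 had a median of -0.31 and the 21 above it -0.42.

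Other genes of the cell cycle were compared from lists that hold none of the 43. Of 65 other mitotic genes, 57 were tested, and their median log2 fold change was -0.24. Of those tested, 50 were lower (87.7%, against 49.1% of all tested genes). The interval lay below 1 in 34 (59.6%) and above 1 in 5, against 26.1% each of all genes with an interval. Cenpp, a centromere protein, had the lowest log2 fold change, with a ratio of 0.389 (0.275 to 0.543). Next came Wee1, the kinase that restrains CDK1, with a ratio of 0.597 (0.491 to 0.726). Zwint, a kinetochore protein, had the highest log2 fold change. Its FPKM was 140 with PRP and 83.1 with vehicle, a ratio of 1.68 (1.63 to 1.73). Zwint thus had a higher FPKM than any of the 43 members. Cenpk, another centromere protein, had a ratio of 1.23 (1.10 to 1.38) and Gtse1, a microtubule-binding protein of G2, one of 1.17 (1.06 to 1.29).

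Genes of the G1/S transition and DNA replication lay closer to no change, with a median log2 fold change of -0.08. Of 37 tested, 25 were lower (67.6%, against 49.1% of all tested genes). The interval lay below 1 in 13 of 36 (36.1%) and above 1 in 2, against 26.1% each of all genes with an interval. Ccne1, the cyclin of the G1/S transition, had an FPKM of 4.68 with PRP and 10.6 with vehicle, a ratio of 0.442 (0.378 to 0.516), and Tk1, the thymidine kinase of S phase, a ratio of 0.558 (0.468 to 0.664). Dbf4, the activator of the replication kinase CDC7, stood at 1.27 (1.14 to 1.42), Mcm7, a subunit of the replicative helicase, at 1.15 (1.05 to 1.26), and Mcm10, a replication fork factor, at 1.14 (0.997 to 1.31).

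The regulators of G2/M transcription had a median log2 fold change of -0.08, with 13 of 21 lower (61.9%, against 49.1% of all tested genes). The interval lay below 1 in 5 of 20 (25%, near the 26.1% of all genes with an interval) and above 1 in 2. Rb1, the retinoblastoma repressor, had a ratio of 0.540 (0.447 to 0.652), and E2f8, an atypical E2F repressor, 0.700 (0.579 to 0.844). Nfyb, a subunit of the CCAAT-binding factor NF-Y, was at 13.2 with PRP and 9.41 with vehicle, a ratio of 1.40 (1.28 to 1.53). Rbbp4 and Lin37 are subunits of the MuvB core. Rbbp4 had a ratio of 1.10 (1.03 to 1.18) and Lin37 one of 1.11 (0.805 to 1.54). Foxm1 and Mybl2, the activators that work through MuvB, were looked up after their values were seen. Foxm1 was at 1.91 and 2.26 with an interval of 0.697 to 1.02, and Mybl2 at 2.80 and 2.74 with a ratio of 1.02 and an interval of 0.850 to 1.23.

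G1 cyclins, kinases and CDK inhibitors had a median log2 fold change of -0.36, with 10 of 12 lower (83.3%, against 49.1% of all tested genes). Beyond counting error, 8 of the 12 were lower (66.7%, against 26.1% of all genes with an interval). The D-type cyclins, which link growth signals to the cell cycle, were lower in the PRP library. Ccnd1 was at 28.6 and 43.7, a ratio of 0.655 (0.623 to 0.689), Ccnd2 had a ratio of 0.619 (0.593 to 0.645) and Ccnd3 one of 0.503 (0.429 to 0.590). The CDK inhibitors were divided. Cdkn1a, which encodes p21, was at 15.2 and 10.1, with an interval of the ratio of 1.35 to 1.65, and Cdkn2b, which encodes p15, had a ratio of 1.27 (1.10 to 1.47). Cdkn2c, which encodes p18, had a ratio of 0.577 (0.463 to 0.716). Cdk2, the partner of cyclins E and A, had a ratio of 0.880 (0.770 to 1.01). Other genes overlap between 11.2% (E2f8) and 23.4% (Ccnd1) of the exon length of Cenpp, Mcm7, Rb1, E2f8, Rbbp4 and Ccnd1.

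**Figure D3:**
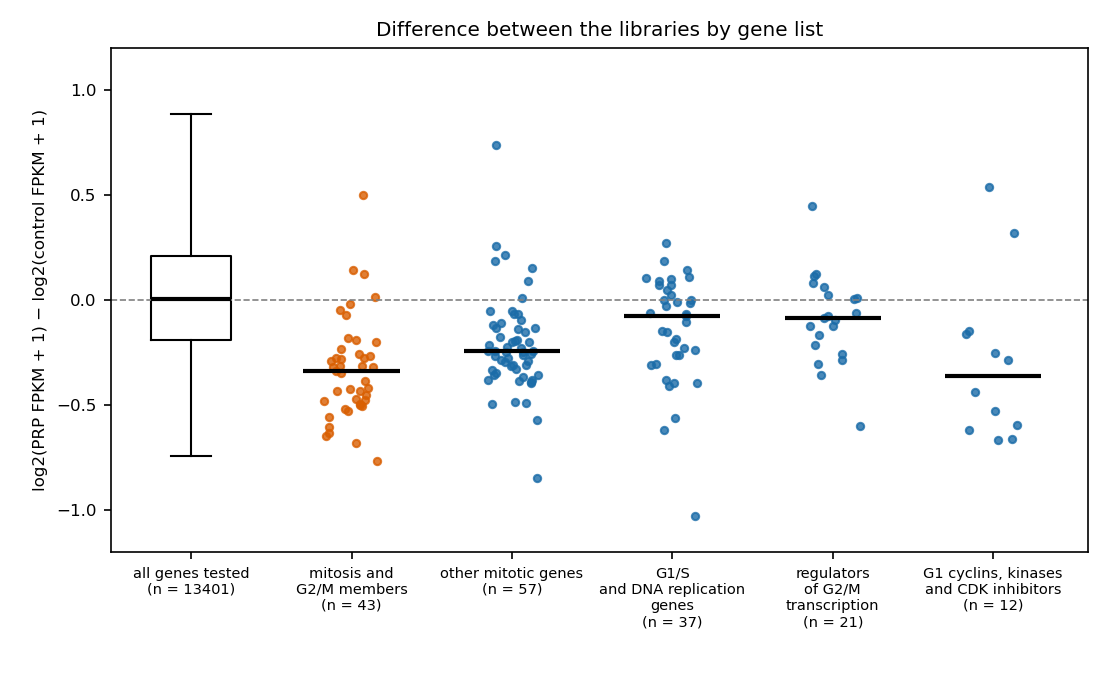
Log2 fold change (PRP minus control, pseudocount 1) of each tested gene in the members and in 4 other cell cycle lists, with bars at the medians, beside all 13401 tested genes as a box of quartiles and median with whiskers at percentiles 2.5 and 97.5. The members' median of -0.34 lies below that of the other mitotic genes at -0.24 and of the G1/S genes at -0.08, and slightly above that of the G1 cyclins, kinases and CDK inhibitors at -0.36. With the filter set to a mean FPKM of 5, the members and the other mitotic genes lie at -0.33 and -0.31.

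The promoters of 36 members were found in RefSeq. In the 300 bases from 250 before to 50 after the start site, CHR letters occurred in 28 of them (77.8%), against 21.7% of all 27025 promoters and 16.4% of the promoters of tested genes. CCAAT letters occurred in 27 (75%, against 41.1% of all promoters), and both in 24 (66.7%, against 8.61%). The E2F letters TTTCCCGC, TTTGGCGC, TTTCGCGC or TTTGCCGC occurred in Cdk1 alone (2.78%, against 2.60%). Among the other mitotic genes compared above, CHR letters occurred in 60.4% of promoters, CCAAT letters in 71.7%, both in 47.2% and E2F letters in 17%. Among the G1/S and replication genes, CCAAT letters occurred in 59.4%, E2F letters in 40.6% and CHR letters in 25%. CHR and CCAAT matches can share a base at their ends, as in Cdca8, where they began at positions 14 and 19. Of the 39 CHR matches, 29 lay between 30 bases before and 50 bases after the start site, in 26 members, while the CCAAT matches lay further upstream, with a median position of -65.

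The median log2 fold change was -0.40 in the 28 members with CHR letters and -0.35 in the 8 without, which were Ccnb1, Cks2, Melk, Birc5, Cenpe, Nuf2, Nusap1 and Pttg1. In the shorter window of 100 bases before to 50 after the start, this order turned, at -0.38 in 27 with and -0.43 in 9 without. For CCAAT letters the medians were -0.42 in 27 with and -0.38 in 9 without, which also turned in the shorter window, to -0.35 in 25 and -0.43 in 11. With both elements the median was -0.42 in 24 members, and it was -0.33 in the 12 others. In the shorter window these were -0.38 in 22 and -0.41 in 14. Birc5, Melk, Nuf2, Nusap1 and Pttg1 held neither element in the longer window. The RefSeq start sites of 30 members lay within 100 bases of the 5′ end of the M21 gene, but for Pttg1, Kif4, Cdca3, Cdca8 and Kif2c the whole window lay inside the M21 gene, so for these 5 the letters upstream of that gene were not searched.

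**Figure D4:**
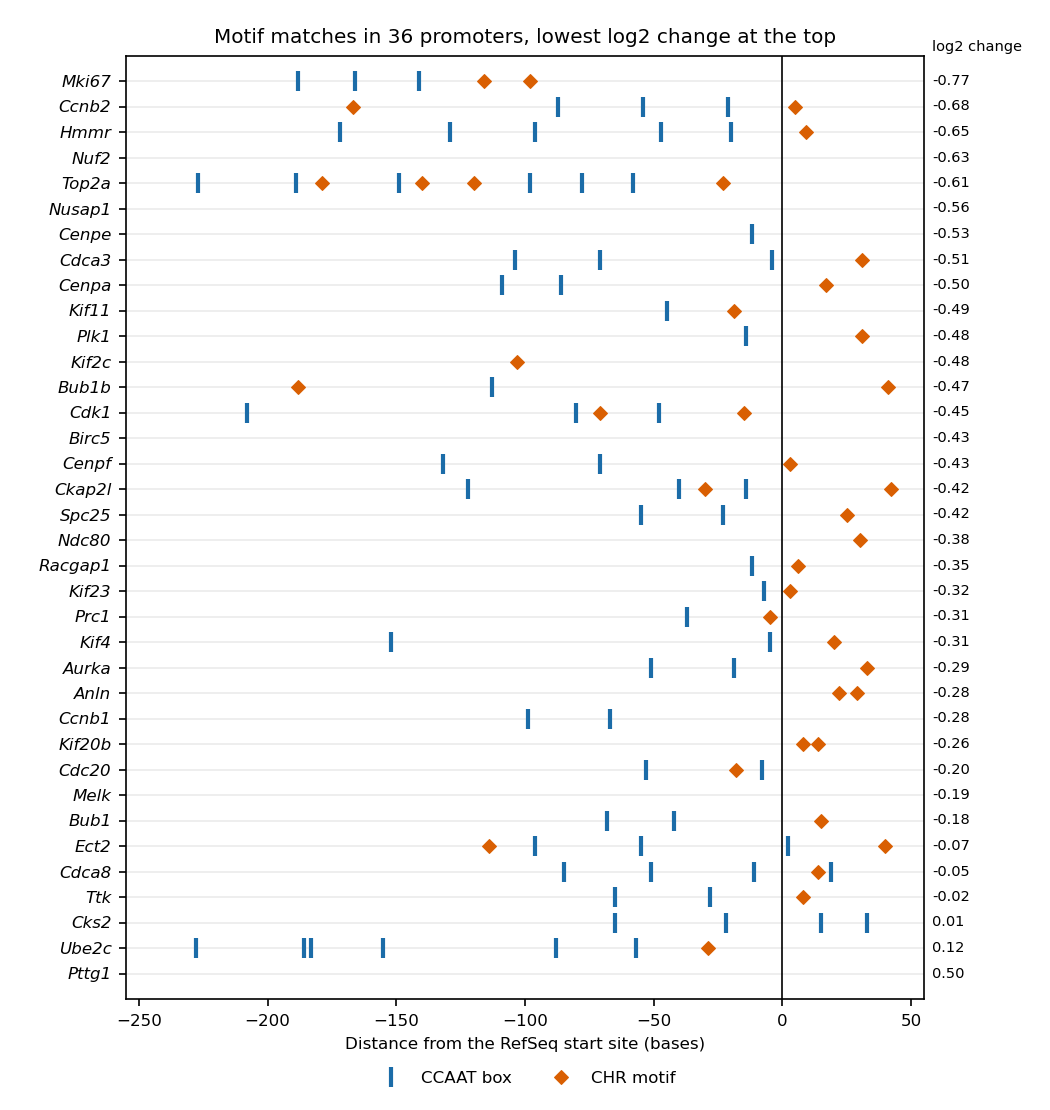
Position of CHR matches (diamonds) and CCAAT matches (bars) relative to the RefSeq start site in bases, for the 36 members with a promoter entry, ordered from the lowest log2 change at the top to the highest. CHR matches crowd around the start site, and 5 members have no mark.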

How the data were processed

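RNA of 1 PRP and 1 control library was sequenced after TRIzol extraction and stranded mRNA library preparation. Per the submitters' processing notes, the authors used fastp 0.23.4, STAR 2.5.3a and featureCounts on mm10. The deposited values are FPKM as computed by the authors, and the annotation release and the FPKM step are not given in the sources used here. Whether counting used strand is not given either. With GENCODE M21 exon lengths, 26406 of 28160 genes (93.8%) came out as whole reads within 0.001 reads. Even read numbers were in excess (79.3% and 80.3% of genes with up to 8 reads), so reads were divided by 2 before the exact Clopper-Pearson 95% intervals were computed, and Bub1 used the smallest read numbers its ratio allows. PCR duplicates are not accounted for. Because no count test was possible with 1 library per group, values were compared as differences with a pseudocount of 1 and a limit on mean FPKM of 1.

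The members and lists were chosen with earlier results of these data known. All 43 members are named. Of each neighbouring list the genes with the 3 highest and 2 lowest signed log2 fold changes are named. Regulators and G1 genes changed at least 1.5-fold are named as well. Of each cell type list, the most abundant gene and some others are named. The alternatives were pseudocounts of 0.1 and 5, no filter or one at FPKM 5, 3 rescalings, other fold limits, undivided reads and a shorter promoter window. Promoters and miRNAs came from RefSeq. Python 3.11.15, NumPy 2.4.6, pandas 2.3.3, SciPy 1.17.1 and matplotlib 3.10.9 were used, and the read recovery and intervals were tested on simulated data.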

Additional observations from a re-analysis of the deposited data

How the results depend on the processing

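No paired analysis was possible because a group is a single library, and no library could be left out. The members' median log2 fold change stayed between -0.42 and -0.23, and 39 or 40 of the 43 were lower under every pseudocount and scaling (28 of 32 at a mean FPKM of 5). The number at least 1.5-fold lower was the least stable value: 10 with a pseudocount of 0.1 (7.22% of all genes), 1 with a pseudocount of 5 (1.53%), 10 with both libraries scaled to the same total (6.74%) and 10 when that total left out mitochondrial genes and the 50 most abundant genes (7.41%), against 5. Both rescalings raise all values and so lessen the weight of the pseudocount. With the lower fold limit (a log2 fold change of -0.32) it was 22 and with 2-fold 0. The number lower beyond counting error was 36 with undivided reads, 33 under both rescalings and 26 of 32 at a mean FPKM of 5. The share of all genes lower beyond counting error was not computed under these settings, so these counts have no background. Undivided reads narrow the interval of every gene. The median of the other mitotic genes ran from -0.35 to -0.10, that of the G1/S genes from -0.15 to -0.06, that of the regulators from -0.13 to -0.04 and that of the G1 cyclins, kinases and CDK inhibitors from -0.45 to -0.25. At a mean FPKM of 5 the members and the other mitotic genes were nearly level, at -0.33 and -0.31. That higher filter also left fewer genes in the other lists, with 16 other mitotic genes, 16 G1/S genes, 4 regulators and 5 G1 genes lower. How many genes of each list passed it was not counted, so these numbers give no share and do not compare the lists. The share of members with E2F letters was 0% in the shorter promoter window. Depth limits what can be said of members with few reads, such as Aurkb, Ttk and Bub1.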

Other observations

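The study followed human let-7f and miR-16 in exosomes from human PRP. Seed matches of the mouse miRNAs of the same names were counted in the longest 3′UTR of each member, a search added after the data were seen, and the human sequences were not used here. The mature mouse RefSeq sequences are shown with the seed, bases 2 to 8, in capitals.
mmu-let-7f-5p: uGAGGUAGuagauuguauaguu
mmu-miR-16-5p: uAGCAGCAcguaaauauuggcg
The let-7f match CTACCTC occurred in 5 of 43 members (Birc5, Cenpa, Kif11, Nusap1 and Spc24), that is 11.6%, against 11.2% of 10365 tested genes. The miR-16 match TGCTGCT occurred in 7 members (Aurka, Birc5, Cdk1, Dlgap5, Hmmr, Kif23 and Nusap1), that is 16.3%, against 27.1%. The members' 3′UTRs were shorter, with a median of 818 bases against 1315. The median log2 fold change was -0.49 in members with a let-7f match and -0.32 in those without, and -0.43 and -0.33 for miR-16. Over all tested genes these medians were -0.03 and 0.00 for let-7f, and -0.03 and 0.01 for miR-16. The members' medians rest on 5 and 7 genes with a match. Birc5 and Nusap1 held both matches.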
